A study of Mus musculus with 6 samples.

Results

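Immune checkpoint ligands are surface proteins with which a cell restrains or stimulates the immune cells that touch it. The genes described here are Cd200, Cd80, Cd86, Cd274, Cd276 and Cd47, taken as the rows of a count table with these symbols. Of the 6 listed genes 5 had a row among the 15159 rows of the table, and all 5 were among the 14758 genes with enough counts for a test. Cd86 had no row. The genes were chosen by their scaled counts in this same comparison of H3K9M with H3WT, already known when the list was made, so their values are given as a description with no p-value.

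RNA was measured in cultured cardiac cells of mouse embryos (C57BL/6 x 129S4/SvJae, embryonic day 18.5) in which doxycycline switches on a transgene of histone H3.3. The H3WT group (3 libraries) expressed the wild-type histone and the H3K9M group (3 libraries) a form with methionine in place of lysine 9. Both groups grew for 4 days on soft PDMS, a silicone, with a stiffness of 13 kPa, and received 2 µg/ml doxycycline on days 0, 1 and 2. Lysine 9 of histone H3 is methylated in silenced chromatin, and the mutant is used to block this methylation, which was not measured here. The labels do not name the promoter or the cell type that drives the transgene, and they do not say whether libraries came from separate animals or pools. The p-values below therefore measure the spread between these libraries, which may be technical.

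A T cell needs a signal from its antigen receptor and a further one from ligands of the B7 family on the cell it meets. CD80 and CD86 give this signal through CD28 and withhold it through CTLA-4, and CD274 (PD-L1) restrains T cells through PD-1. CD276 (B7-H3) is a B7 relative without a settled receptor. CD200 quiets macrophages and other myeloid cells through the CD200 receptor, which recruits the adaptor proteins Dok1 and Dok2. CD47 signals to SIRPα on macrophages so that the cell is not engulfed. CD200 and CD47 are made by many cell types, among them endothelial cells and neurons, whereas CD80 and CD86 are known mainly from antigen-presenting cells.

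The libraries held 55550379 to 67994773 counts each. Levels are given as CPM (counts scaled by the TMM-normalised library size) or, where genes are compared with each other, as RPKM (CPM per kilobase of exon). Values after ± are the SD of 3 libraries for a level and the SE for a log2 fold change. The cardiac label fitted the heart muscle transcripts: Myh6 and Tnnt2, of the contractile apparatus, stood at 14926 ± 2157 and 5890 ± 258 CPM in H3WT and at 15723 ± 1426 and 6087 ± 87.5 CPM in H3K9M (SD, n = 3 in each group). Fibroblast transcripts were also abundant (Col1a1 at 5498 ± 504 and 5930 ± 1015 CPM), so the cultures held more than muscle cells. Every library held both Xist, transcribed from the inactive X chromosome of females, and the Y-linked Ddx3y. H3WT replicate 1 had the lowest Xist (71.3 CPM) and the highest Ddx3y (73.4 CPM) of the 6 libraries.

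The start sites of the genes differ in their content of CG dinucleotides, the sites of DNA methylation. Sequences before the start (RefSeq, build GRCm38.p6, strand of the gene) are shown for the gene with much less transcript in H3K9M (Cd200), the gene with more (Cd80) and a gene with about equal levels (Cd47), with each CG in capitals. The windows are the 250 bases before the start at chr16:45409054-45409303 (minus strand) for Cd200 and at chr16:38458683-38458932 (plus strand) for Cd80. For Cd47 they are the 229 bases at chr16:49855404-49855632 (plus strand) of its window that lie outside annotated exons. RefSeq starts are not always the outermost ones: in GENCODE the Cd200 gene begins at the RefSeq start, but the Cd80 gene begins 3.37 kb and the Cd47 gene 55.1 kb before it. The Cd80 and Cd47 windows therefore lie inside the genes as annotated there, before a further transcript start that is 0 bases (Cd80) and 2 bases (Cd47) from the RefSeq start.
Cd200: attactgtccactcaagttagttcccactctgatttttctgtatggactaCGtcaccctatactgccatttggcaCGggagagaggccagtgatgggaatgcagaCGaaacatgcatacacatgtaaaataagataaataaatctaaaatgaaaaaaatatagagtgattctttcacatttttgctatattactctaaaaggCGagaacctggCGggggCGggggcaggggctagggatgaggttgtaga
Cd80: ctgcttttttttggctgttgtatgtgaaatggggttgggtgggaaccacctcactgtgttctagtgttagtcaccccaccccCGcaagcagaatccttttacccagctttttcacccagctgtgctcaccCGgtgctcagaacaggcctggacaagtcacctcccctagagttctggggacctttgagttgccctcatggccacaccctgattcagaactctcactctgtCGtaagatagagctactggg
Cd47: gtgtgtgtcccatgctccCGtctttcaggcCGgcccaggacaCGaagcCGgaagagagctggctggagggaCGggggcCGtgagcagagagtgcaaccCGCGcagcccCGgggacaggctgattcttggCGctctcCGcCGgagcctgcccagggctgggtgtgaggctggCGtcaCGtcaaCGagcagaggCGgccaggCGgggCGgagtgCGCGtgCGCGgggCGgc
The Cd200 window held 6 CG sites and the Cd80 window 3. The stretch shown for Cd47 held 23, and its whole window 30.

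Over the 27025 windows of the RefSeq table the median was 6 CG sites, and 91.74% of windows held at least 1. CG reads the same on both strands, so each site was counted once and no other motif was searched. Windows with as few CG sites as Cd200 or fewer made up 53.5% of the table, and with as few as Cd80 38.07%. The window of Cd274 held 11 CG sites (66.17% of windows held as many or fewer), that of Cd276 29 (94.37%) and that of Cd47 30 (95.07%). In the Cd274 window 185 of 250 bases are exon of its neighbour Plgrkt, and all 250 of the Cd276 window are exon of Cd276 itself or of Gm10657, since GENCODE begins Cd276 0.404 kb before the RefSeq start. Cd80 and Cd200 thus had the fewest CG sites of the 5 genes, with Cd200 at the median of all windows. The windows include genes that were not tested here. A link between CG sites and the difference of the groups was not tested.

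**Figure D1:**
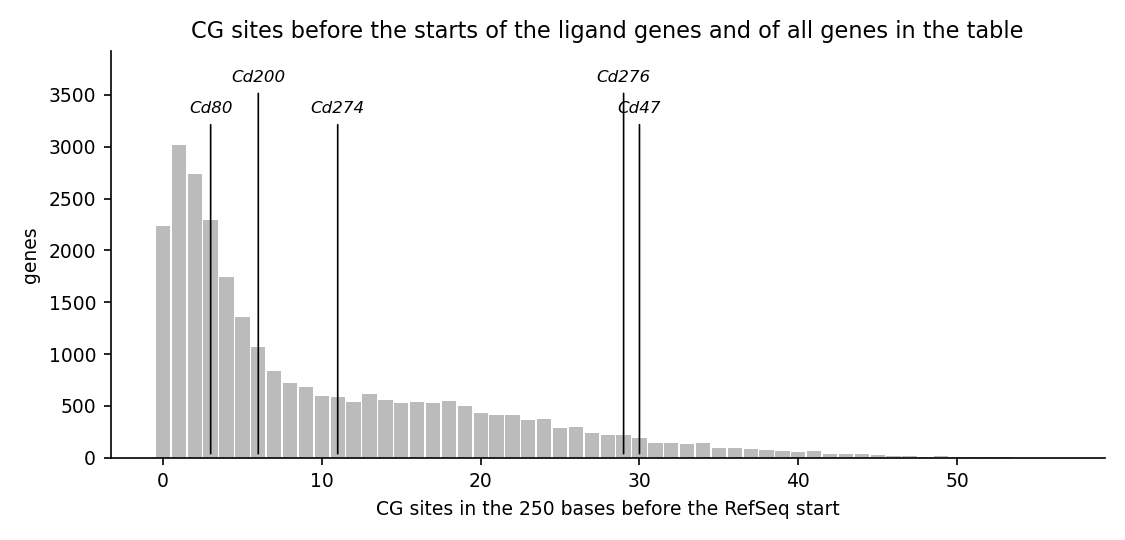
Number of genes (y axis) by the number of CG sites in the 250 bases before the RefSeq start (x axis), with the 5 measured ligand genes marked. Cd80 (3 sites) sits on the left, Cd200 at the median of 6 sites, and Cd276 (29) and Cd47 (30) on the right.

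Cd200, which encodes the ligand of the inhibitory CD200 receptor, was the member with the lower level in H3K9M. The gene (ENSMUSG00000022661.14) lies on chromosome 16 at 45382135 to 45409053 (GRCm38, minus strand). The H3WT libraries held 2504, 3181 and 3930 reads, or 44.6, 57.3 and 57.7 CPM. The H3K9M libraries held 315, 362 and 369 reads, or 5.38, 5.96 and 6.44 CPM. The groups did not overlap, and each H3K9M library stood at 10.1 to 12.1% of the H3WT mean. The means were 53.2 ± 7.46 CPM in H3WT and 5.93 ± 0.531 CPM in H3K9M (SD, n = 3), which puts the H3WT mean 8.98-fold above that of H3K9M. The log2 fold change of the edgeR fit was -3.17 ± 0.14 (SE). Only 10 of the 14758 tested genes had a more negative value, so Cd200 ranked 11, and 99.78% of tested genes changed by less in either direction. Leaving out any 1 library gave values of -3.28 to -3.10.

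Cd80, the costimulatory ligand of CD28 and CTLA-4, was the member with the higher level in H3K9M. It lies on chromosome 16 at 38455561 to 38496335 (ENSMUSG00000075122.5, plus strand). The H3WT libraries held 109, 109 and 114 reads (1.94, 1.96 and 1.67 CPM) and the H3K9M libraries 304, 251 and 366 reads (5.19, 4.13 and 6.39 CPM). All H3K9M libraries lay above all H3WT libraries, at 222 to 343% of the H3WT mean. The spread was wider in H3K9M, with means of 1.86 ± 0.161 and 5.24 ± 1.13 CPM. The log2 fold change was 1.49 ± 0.24 (SE), a 2.82-fold difference of the means, and 155 tested genes had a larger rise. The value lay between 1.33 and 1.63 when 1 library at a time was left out. Cd86, the other ligand of CD28 and CTLA-4, is annotated on the same chromosome at 36603869 to 36666081 (ENSMUSG00000022901.13) and gave no value.

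Cd274 was the scarcest of the measured members. It lies on chromosome 19 at 29367455 to 29388095 (ENSMUSG00000016496.7, plus strand). The libraries held 58, 40 and 87 reads in H3WT and 65, 68 and 77 in H3K9M, or 1.03, 0.721 and 1.28 CPM against 1.11, 1.12 and 1.34 CPM. The groups overlapped, and the log2 fold change of 0.23 ± 0.37 (SE) was smaller than its error. Leaving out H3WT replicate 2 gave 0.04, leaving out H3WT replicate 3 gave 0.44, and leaving out H3K9M replicate 3 gave 0.14. H3WT replicates 2 and 3 differed from each other beyond counting error, with exact 95% Poisson intervals of 0.515 to 0.981 CPM for H3WT replicate 2 and 1.02 to 1.58 CPM for H3WT replicate 3. These intervals cover counting error only. Of the exon bases of Cd274 14.1% (511 of 3622) are shared with an antisense gene, AC119228.1, and the strand setting of the counting is not given in the sources used here.

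Cd276 was among the more abundant members and differed little between groups. It lies on chromosome 9 at 58524298 to 58555437 (ENSMUSG00000035914.11, minus strand). The H3WT libraries stood at 59.4, 60.8 and 66.6 CPM and the H3K9M libraries at 55.9, 60.4 and 54.8 CPM. The highest H3K9M library lay above the lowest H3WT library, so the groups overlapped, and the log2 fold change was -0.13 ± 0.08 (SE). A gene model on the other strand, Gm10657, shares 11.4% of the exon bases of Cd276 (416 of 3658).

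Cd47, the signal read by SIRPα, was the most even of the 5 members. It lies on chromosome 16 at 49800533 to 49915010 (ENSMUSG00000055447.19, plus strand). The levels were 49.98, 47.0 and 48.3 CPM in H3WT and 48.2, 44.2 and 46.5 CPM in H3K9M. These ranges overlapped, the SD within a group was 1.49 and 2.02 CPM, and the log2 fold change was -0.06 ± 0.08 (SE). The values of Cd276 and Cd47 lay close to the median of all tested genes, -0.0024, and below the median absolute log2 fold change of 0.152.

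Past an edgeR adjusted p of 0.05 lay 2 of the 5 measured members, Cd200 lower and Cd80 higher, where 1.99% of all tested genes passed in either direction (0.935% higher and 1.05% lower). Groups did not overlap in 2 of the 5 members and in 22.6% of all tested genes (11.3% in each direction). Since the comparison itself led to the choice of the genes, nothing is read from these counts. Cd80 was no longer past the threshold when H3WT replicate 2 or either of H3K9M replicates 1 and 3 was left out. The same held with the replicate number as a block. Cd200 stayed past the threshold in each of these fits. They reuse the libraries that led to the choice of the genes, so nothing is read from this either.

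**Figure D2:**
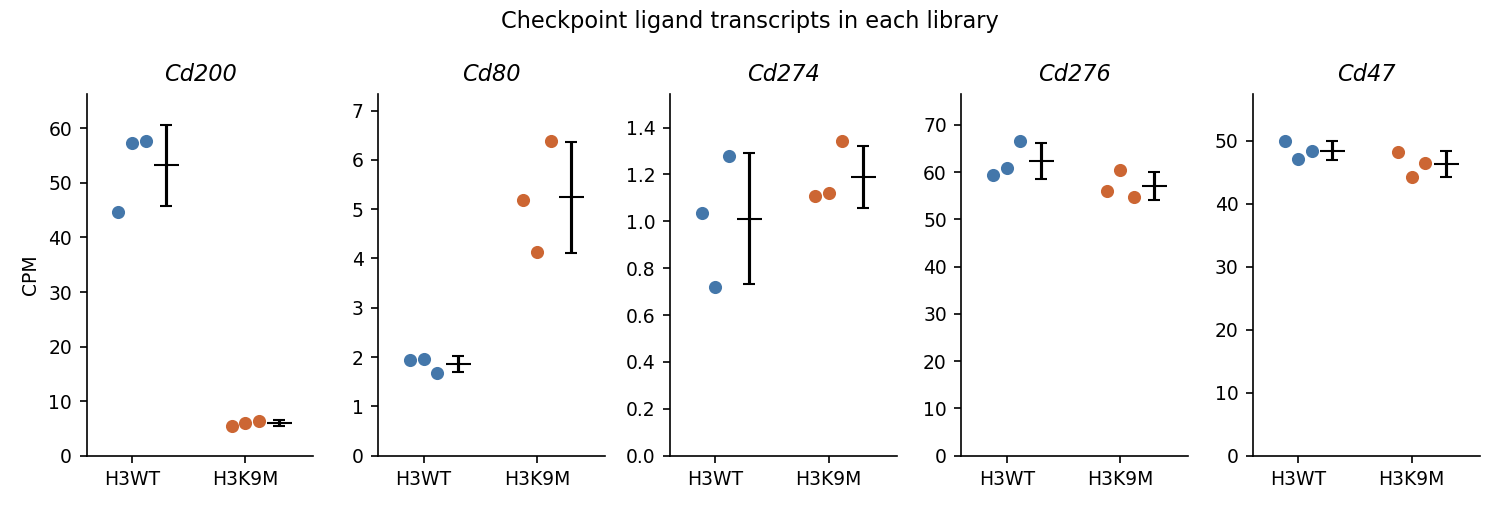
Level of each measured ligand gene in CPM (y axis, from 0, own scale for each gene) in the 3 H3WT and 3 H3K9M libraries, with the mean and SD of each group beside the points. Cd200 lies at 44.6 to 57.7 CPM in H3WT and at 5.38 to 6.44 CPM in H3K9M, Cd80 is higher in all 3 H3K9M libraries, and the points of Cd274, Cd276 and Cd47 overlap.

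Per exon length, the order of the members changed between the groups. In H3WT, Cd276 (mean 17.0 RPKM) and Cd200 (16.03 RPKM) stood together at the top with overlapping libraries, at 16.3 to 18.2 and 13.4 to 17.4 RPKM. Cd47 followed at 7.72 RPKM, then Cd80 at 0.502 and Cd274 at 0.279 RPKM, with no overlap between these neighbours. In H3K9M Cd276 stood alone at the top with 15.6 RPKM, and Cd47 came next with 7.38 RPKM. Cd200 (1.62 to 1.94 RPKM) and Cd80 (1.12 to 1.73 RPKM) overlapped there, above Cd274 at 0.329 RPKM.

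The summed level of the 5 genes was 38.45 to 44.11 RPKM in the H3WT libraries and 26.30 to 26.78 RPKM in the H3K9M libraries. Cd200 made up 34.9 to 41.0% of this sum in H3WT and 6.16 to 7.34% in H3K9M. Cd80 made up 1.03 to 1.36% and 4.16 to 6.53%. The share of Cd276 went from 39.5 to 42.3% in H3WT to 56.7 to 61.7% in H3K9M while its own level was about the same. For each read of Cd80 there were 23.0, 29.2 and 34.5 reads of Cd200 in the H3WT libraries and 1.04, 1.44 and 1.01 in the H3K9M libraries.

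**Figure D3:**
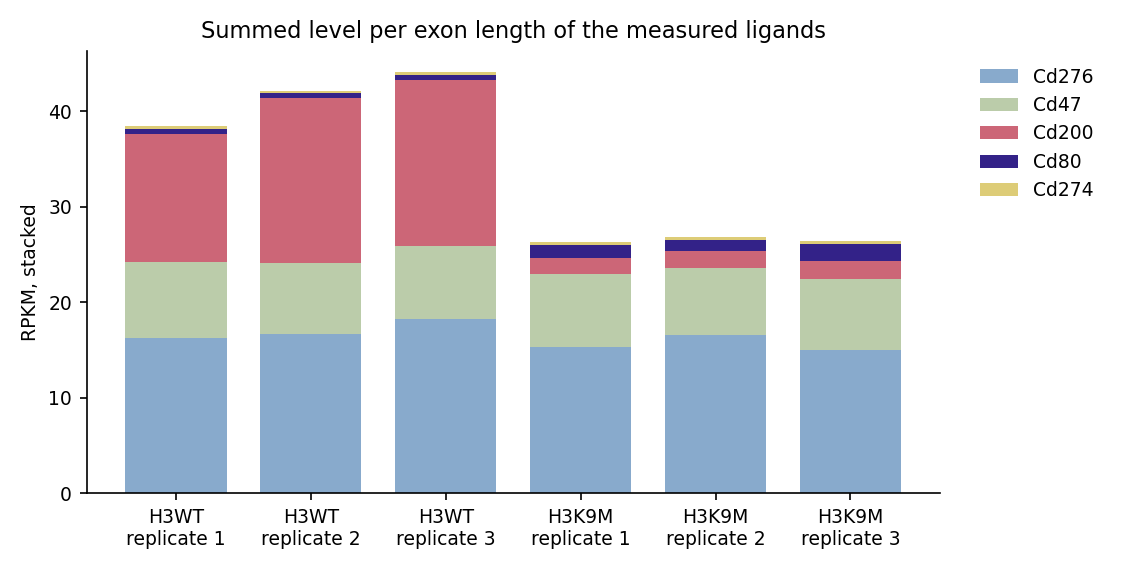
Stacked bars of the RPKM (y axis, from 0) of the 5 measured ligand genes in each of the 6 libraries (x axis). The Cd200 segment takes 34.9 to 41.0% of the bar in H3WT and 6.16 to 7.34% in H3K9M, and the segments of Cd276 and Cd47 keep about the same height.

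The authors' deposited table of their own DESeq2 comparison gave a log2 fold change of -3.37 ± 0.21 for Cd200 and 1.68 ± 0.37 for Cd80. For the other members the authors' deposited table gave -0.09 ± 0.13 (Cd276), -0.03 ± 0.12 (Cd47) and -0.43 ± 0.60 (Cd274). The sign for Cd274 is opposite to that from the counts, and both values are smaller than their errors. Mean normalised counts in the authors' deposited table were a median of 0.252 times the scaled means of the count table, and what sets this ratio was not tested.

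The genes around these ligands in their pathways showed no call. Of 67 receptors, other ligands and signalling genes listed, 56 had a row and 54 were tested, and none passed an edgeR adjusted p of 0.05 in either direction, where 0.935% of all tested genes passed higher and 1.05% lower. At an unadjusted edgeR p under 0.05 there were 3 higher and 4 lower, beside 7.78% and 8.61% of all tested genes. DESeq2 called 1 higher (Axl) and 2 lower (Cd48 and Thbs1), beside 472 higher and 538 lower of all 14758 tested genes by DESeq2. With limma-voom none was called, beside 110 higher and 112 lower of all tested genes. The groups did not overlap in 5 higher and 6 lower genes, 20.4% of the 54, beside 22.6% of all tested genes. The median log2 fold change of the 54 genes was -0.05, and 24 were positive and 30 negative.

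The receptors of the members were measured at low levels except for SIRPα. Of 9 receptor genes 5 were tested, with a median log2 fold change of -0.19. Cd200r2, Cd200r3, Ctla4 and Pdcd1 (PD-1) had no row. Sirpa, the receptor for CD47, was at 72.9, 49.6 and 43.2 CPM in H3WT and 42.6, 38.6 and 45.5 CPM in H3K9M, with a log2 fold change of -0.39 ± 0.18 (SE). Cd200r1, the inhibitory receptor for CD200, was at 4.17, 1.24 and 0.882 CPM in H3WT and 1.21, 1.89 and 1.31 CPM in H3K9M. H3WT replicate 1 was the highest library for both genes, and the groups overlapped for both. Cd200r1 and its relative Cd200r4 (0.997 ± 0.683 and 0.868 ± 0.120 CPM) lie near Cd200 on chromosome 16, with 0.616 Mb between the lowest coordinates of Cd200r1 and Cd200. Cd28 was at 1.27 ± 0.462 and 1.52 ± 0.391 CPM.

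Among 12 tested ligands of other checkpoints (17 listed, 13 with a row) the median log2 fold change was -0.22. Groups did not overlap for 1 higher and 3 lower genes, 8.33% and 25.0% of the 12, beside 11.3% of all tested genes in each direction. Cd48, the ligand of the lymphocyte receptor CD244, was at 2.46, 1.82 and 0.793 CPM in H3WT and 0.427, 0.247 and 0.401 CPM in H3K9M. Its log2 fold change was -2.23 ± 0.52 (SE) with an edgeR adjusted p of 0.0761, the smallest of the 54 pathway genes. The adjusted p of Cd48 was 0.0356 without H3WT replicate 3 by edgeR and 0.00179 by DESeq2. Icosl, the ligand of the T cell costimulator ICOS, was at 2.07 ± 0.650 and 1.04 ± 0.373 CPM (log2 fold change -0.997 ± 0.40 SE). Tnfrsf14, the ligand of BTLA, was at 3.99 ± 0.707 and 2.49 ± 0.649 CPM (-0.68 ± 0.27). Pvr, the poliovirus receptor homologue that binds TIGIT, was at 32.4, 44.4 and 55.5 CPM in H3WT and at 68.0, 56.6 and 55.8 CPM in H3K9M (0.45 ± 0.18). All 4 had groups that did not overlap, and none passed the edgeR test.

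The most abundant of these ligands were close in the 2 groups. Pvrl2 (nectin-2) stood at 72.0 ± 8.30 and 75.8 ± 1.11 CPM and Cd24a, a ligand of Siglec receptors, at 49.2 ± 1.91 and 58.1 ± 8.69 CPM. Pdcd1lg2 (PD-L2), Vtcn1, Btn2a2 and Btnl2 had no row. Of 9 costimulators of the TNF family and CD40, 5 were tested, with a median of 0.12. Cd40 stood at 6.85 ± 1.53 and 5.72 ± 0.713 CPM and Tnfsf9 at 2.04 ± 0.695 and 2.21 ± 0.751 CPM.

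Genes that work with CD47 in the clearance of cells had a median of 0.02 over 14 tested. Thbs1, whose product thrombospondin is a soluble ligand of CD47, was at 3471, 4712 and 4193 CPM in H3WT and 3387, 2511 and 2743 CPM in H3K9M. The log2 fold change of Thbs1 was -0.52 ± 0.15 (SE) with an edgeR adjusted p of 0.125. Axl, a receptor for dying cells, was at 669, 875 and 966 CPM in H3WT and 1328, 1075 and 1101 CPM in H3K9M (0.48 ± 0.15, edgeR adjusted p of 0.145). Both had groups that did not overlap, and the 2 made up 14.3% of the list, beside 22.6% of all tested genes. Lrp1, a receptor for calreticulin on dying cells, was at 1488 ± 219 and 1507 ± 179 CPM.

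Downstream of the CD200 receptor, 4 genes were tested with a median of -0.04 and no separation of the groups. Rasa1 was at 78.9 ± 3.29 and 78.4 ± 3.57 CPM and Dok1 at 14.1 ± 2.14 and 16.4 ± 1.604 CPM. Of 15 genes that induce PD-L1 or set its stability, 3 had higher and 2 lower groups without overlap. These were 20.0% and 13.3% of the list, beside 11.3% of all tested genes in each direction. The median of the list was -0.09. Stat3 and Jak1, which carry cytokine signals, stood at 328 ± 18.1 and 301.3 ± 8.96 CPM and at 224 ± 13.2 and 211 ± 9.61 CPM. Spop, which marks PD-L1 for degradation, was at 125 ± 8.52 and 149 ± 8.56 CPM (0.25 ± 0.08, edgeR adjusted p of 0.172).

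**Figure D4:**
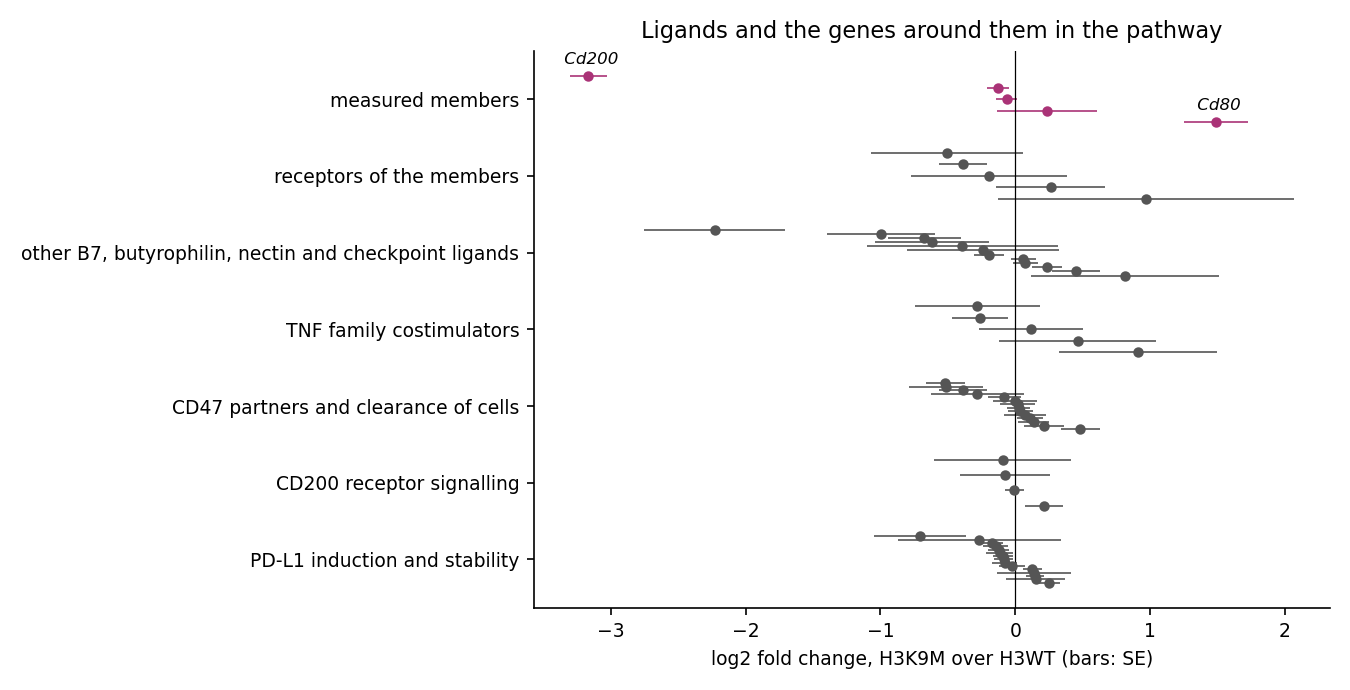
Log2 fold change of H3K9M over H3WT (x axis, points with SE bars) of each tested gene, in rows for the 5 measured members and the 6 pathway lists. Cd200 at -3.17 and Cd80 at 1.49 stand at the ends of their row, and in the other rows Cd48 at -2.23 lies farthest from 0.

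In RNA of mixed cells, fewer cells of a type and less RNA per cell cannot be told apart, so markers of other cell types are given beside Cd200 and Cd80. Cd200 is known from endothelial cells and neurons. Of 12 endothelial markers 10 had a negative log2 fold change (median -0.55). Lower groups without overlap were found for 3 of the 12 (Tek, Egfl7 and Flt1), or 25.0%, beside 11.3% of all tested genes. None passed the edgeR test. An unadjusted edgeR p under 0.05 was found for 6, all lower, where 8.61% of all tested genes were lower. The summed level of the endothelial markers was 536.5 to 661.9 CPM in H3WT and 481.9 to 561.6 CPM in H3K9M. Eng stood at 328 ± 23.6 and 332 ± 15.1 CPM, and Cdh5, which defines endothelial junctions, at 66.4 ± 19.4 and 44.1 ± 10.0 CPM. Without Eng, the most abundant marker, the sums did not overlap. They were 235, 244 and 317 CPM in H3WT and 144, 218 and 172 CPM in H3K9M. The most abundant gene was left out of the other marker lists in the same way. Leukocyte, neuronal, cardiomyocyte, fibroblast, smooth muscle and Schwann cell sums then overlapped, and mesothelial sums did not. Of the neuronal markers Stmn2, Th, Snap25 and Syt1 had no row, and Tubb3 and Dbh stood at 193 ± 49.2 and 174 ± 36.8 CPM and at 5.97 ± 2.46 and 4.24 ± 0.964 CPM. The summed neuronal level was 167 to 254 CPM in H3WT and 135 to 201 CPM in H3K9M. The part of these cell types in the Cd200 difference was not tested.

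Cd80 is known from antigen-presenting cells. Of 17 leukocyte and macrophage markers 14 had a negative log2 fold change (median -0.38) and none passed the edgeR test, with 1 at an unadjusted p under 0.05. The 3 with positive values were Itgax (0.911 ± 0.0604 and 1.44 ± 1.01 CPM, 0.66 ± 0.63), which is also a dendritic cell marker, Itgam (0.15 ± 0.33) and Cd14 (0.12 ± 0.53). The summed level of all 17 markers was 182 to 640 CPM in H3WT and 256 to 336 CPM in H3K9M, so the H3K9M libraries lay within the H3WT range. H3WT replicate 1 was the highest library and H3WT replicate 3 the lowest. Without Lyz2, the most abundant, the sums were 371.0, 209.7 and 123.2 CPM in H3WT and 147.3, 192.9 and 186.5 CPM in H3K9M. Lyz2 was at 154 ± 107 and 133 ± 21.5 CPM and C1qc at 41.7 ± 26.4 and 29.2 ± 7.24 CPM. Cx3cr1 alone had groups without overlap (3.52 ± 0.355 and 1.57 ± 0.305 CPM, edgeR adjusted p of 0.0661), 5.88% of the list beside 22.6% of all tested genes. Of 9 lymphoid and dendritic cell markers 8 had no row, and Zbtb46 was at 14.4 ± 3.03 and 16.8 ± 3.57 CPM. The part of leukocytes in the Cd80 difference was not tested.

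The other marker lists also gave no call. The summed cardiomyocyte level was 28810 to 35400 CPM in H3WT and 31170 to 35570 CPM in H3K9M. Of the 10 cardiomyocyte markers 8 had a positive log2 fold change and 2 a negative one. Pln, a brake on the calcium pump, was higher without overlap. Nppa had the largest value (1.53 ± 0.45), but its groups overlapped. It was at 345, 286 and 480 CPM in H3WT and 1811, 989 and 405 CPM in H3K9M. Of 8 fibroblast markers 6 had a negative log2 fold change (median -0.56), among them Tcf21 (-0.88 ± 0.35) and Lum (-1.002 ± 0.49), and 1 had an unadjusted edgeR p under 0.05. For both Tcf21 and Lum H3WT replicate 1 was the highest library and the groups overlapped. Tcf21 stood at 153.6, 93.7 and 49.1 CPM in H3WT and 41.2, 61.3 and 57.9 CPM in H3K9M. Lum stood at 54.4, 23.0 and 14.2 CPM in H3WT and 7.86, 17.9 and 20.0 CPM in H3K9M. The fibroblast sums, in which collagens weigh most, were 12840 to 19330 and 11540 to 18320 CPM, and those of smooth muscle and pericytes 5570 to 7408 and 5363 to 5831 CPM. Mesothelial sums were only just apart, at 11.24 to 16.19 CPM in H3WT and 16.32 to 23.1 CPM in H3K9M. Of the 5 mesothelial markers 4 had a positive log2 fold change. The most abundant, Wt1, was the negative one, at 7.63 ± 1.16 and 5.75 ± 1.69 CPM. Krt19 overlapped, at 0.641, 2.58 and 5.72 CPM in H3WT and 10.8, 8.43 and 4.97 CPM in H3K9M. Msln (1.32 ± 0.44) and Upk1b (1.75 ± 0.95) were higher without overlap, 40.0% of the list beside 11.3% of all tested genes. Both were scarce, with means of 0.405 and 1.01 CPM for Msln and 0.126 and 0.437 CPM for Upk1b. Of the Schwann cell markers S100b was at 1.07 ± 0.191 and 2.25 ± 0.106 CPM.

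Cd86, Cd80, Cd200 and Cd47 lie in this order on mouse chromosome 16, with 1.852, 6.927 and 4.418 Mb between the lowest coordinates of successive genes. In the 13.2 Mb from Cd86 to Cd47, 54 genes other than the members were tested, and edgeR called 1 higher (Pla1a) and 1 lower (Gap43), 1.85% in each direction beside 0.935% and 1.05% of all tested genes. Groups did not overlap for 11 higher and 4 lower genes, 20.4% and 7.41% of the 54, beside 11.3% in each direction over all tested genes. Gap43, a protein of growing axons, lies between Cd80 and Cd200 and fell from 2.48 ± 0.974 to 0.411 ± 0.132 CPM. The log2 fold change of Gap43 was -2.59 ± 0.44 (SE) with an edgeR adjusted p of 0.0313. The call on Gap43 was lost with limma-voom (0.0724), with the replicate block (0.100) and without H3WT replicate 2 (0.124), H3WT replicate 3 (0.0557), H3K9M replicate 1 (0.0953), H3K9M replicate 2 (0.0748) or H3K9M replicate 3 (0.105).

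Pla1a, a phospholipase gene, starts 22.4 kb before the GENCODE start of Cd80 and rose in H3K9M. Its libraries stood at 6.00, 9.48 and 11.2 CPM in H3WT and at 27.2, 24.8 and 28.4 CPM in H3K9M, with no overlap. The log2 fold change of Pla1a was 1.59 ± 0.21 (SE), with an edgeR adjusted p of 0.00945. It was not called without H3WT replicate 2 (0.0569), and was called in the other fits.

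Cd80 stood in a run of 9 consecutive tested genes in each of which all H3K9M libraries lay above all H3WT libraries. This run was noticed after the values were seen, and it counts Cd80 itself, which was chosen by this comparison. Of all tested genes 11.3% were higher without overlap. It spans 366 kb and holds, in order, Cox17, Popdc2, Pla1a, Adprh, Cd80, Timmdc1, Poglut1, Tmem39a and Arhgap31. Adprh, whose 5′ end in GENCODE is 2.86 kb from that of Cd80, was at 53.5, 55.3 and 54.1 CPM in H3WT and 63.5, 65.8 and 67.0 CPM in H3K9M (log2 fold change 0.27 ± 0.07 SE, edgeR adjusted p of 0.0918). On the other side Timmdc1, an assembly factor of respiratory complex I, was at 24.8, 25.1 and 25.3 CPM in H3WT and 33.3, 30.7 and 31.7 CPM in H3K9M (0.35 ± 0.08, edgeR adjusted p of 0.0788). These differences were far smaller than those of Cd80 and Pla1a and did not pass the test.

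Farther out, Arhgap31 stood at 189 ± 13.0 and 285 ± 53.2 CPM (0.59 ± 0.13). Popdc2, a cyclic AMP-binding protein of heart muscle, stood at 378 ± 50.6 and 495 ± 52.2 CPM (0.39 ± 0.12). Cox17, a copper chaperone of cytochrome oxidase, was at 32.4 ± 1.81 and 42.4 ± 2.05 CPM (0.39 ± 0.09). Poglut1 and Tmem39a had log2 fold changes of 0.20 ± 0.08 and 0.12 ± 0.09. None of these 5 passed the edgeR test. DESeq2 called Cox17, Popdc2, Pla1a, Adprh, Timmdc1 and Arhgap31 higher, beside 472 higher of all 14758 tested genes. Of the 9 tested genes whose lowest coordinate lies within 250 kb of that of Cd80, 8 had positive values and Maats1 had -0.16 ± 0.63. Of all tested genes 49.5% had positive values. Their median log2 fold change was 0.35, and it stayed between 0.31 and 0.37 in 12 other fits, beside -0.0024 over all tested genes.

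Around Cd200 no such run was seen. Of the 12 tested genes within 1000 kb of it none was called by edgeR and none had groups without overlap. Over all tested genes these shares were 1.99% and 22.6%. The nearest, Atg3, an enzyme of autophagy, was at 37.8 ± 0.526 and 41.1 ± 5.02 CPM (0.12 ± 0.10). On the other side Tagln3 was at 0.349 ± 0.462 and 0.482 ± 0.101 CPM.

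**Figure D5:**
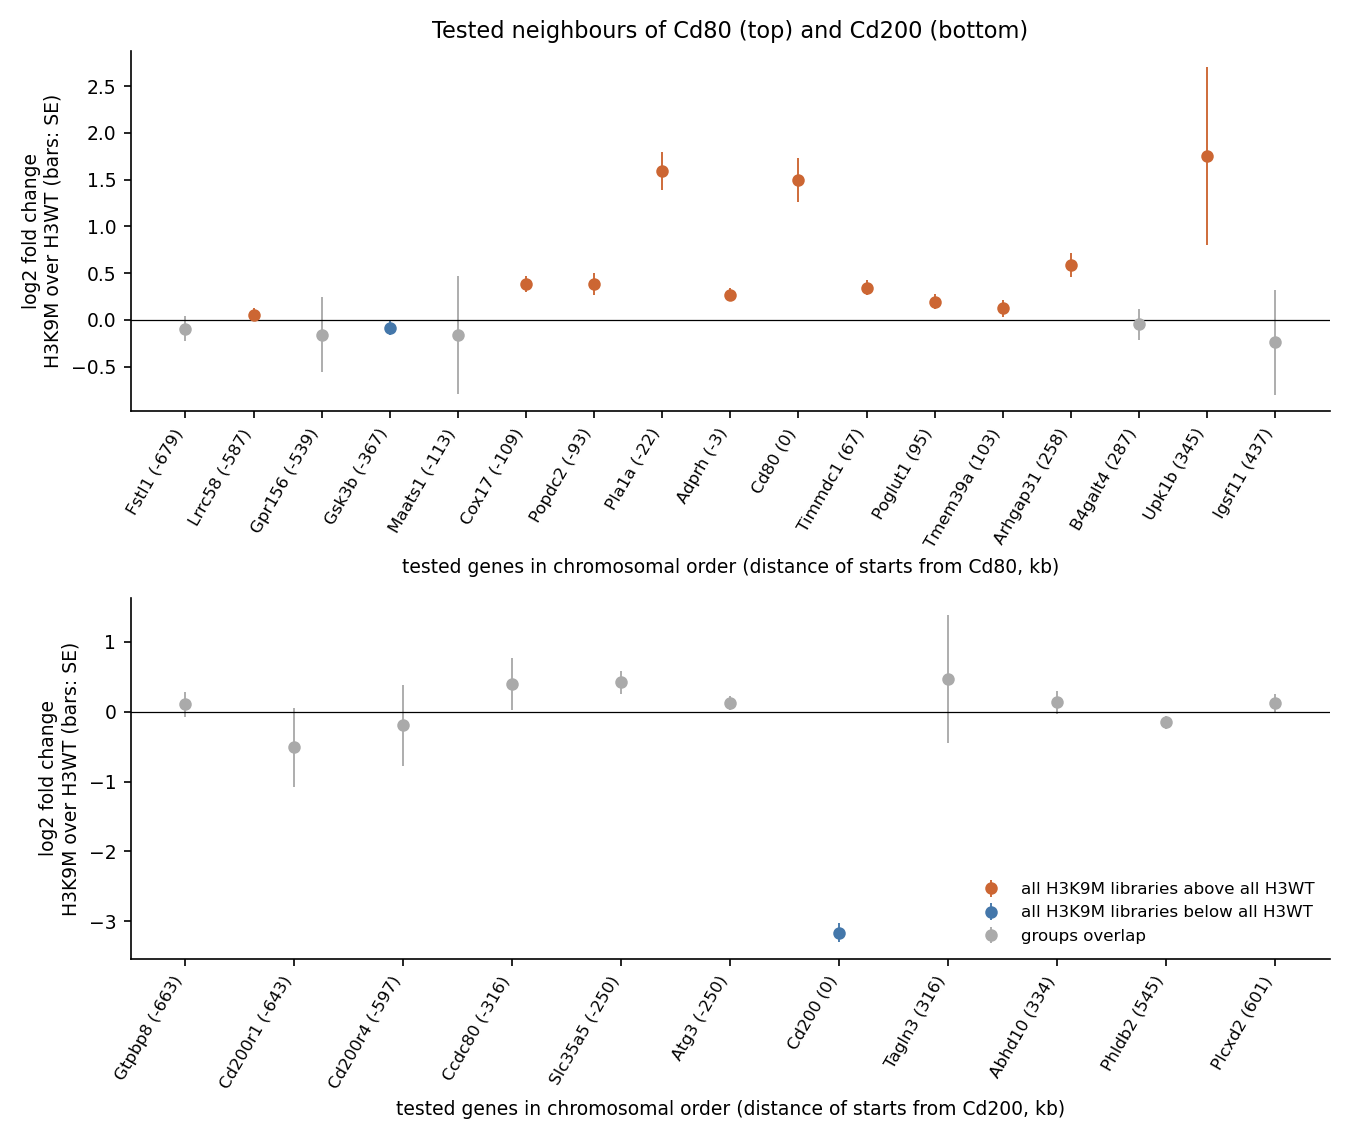
Log2 fold change of H3K9M over H3WT (y axis, points with SE bars) of the tested genes around Cd80 (top) and Cd200 (bottom) in chromosomal order, with the distance of each gene's 5′ end in kb. Around Cd80 a run of 9 genes is coloured as higher in all H3K9M libraries, and around Cd200 the groups of every neighbour shown overlap.

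The nearest tested genes of the other members gave 1 further call. Beside Cd276, 6030419C18Rik was at 16.04, 17.0 and 16.4 CPM in H3WT and 24.4, 22.2 and 23.6 CPM in H3K9M, with no overlap and a log2 fold change of 0.51 ± 0.09 (SE). Its edgeR adjusted p was 0.0373, and 0.138 with the replicate block and 0.0588 to 0.130 without any 1 library. Nptn, on the other side of Cd276, had -0.02 ± 0.07. Plgrkt, which starts 0.065 kb from Cd274 on the other strand, had 0.11 ± 0.18, and the gene on the other side, A930007I19Rik, had -0.40 ± 0.60. Beside Cd47, Ift57 had -0.01 ± 0.15 and Bbx -0.20 ± 0.09. Beside Cd86, Ccdc58 had 0.25 ± 0.12 and Slc15a2 -0.94 ± 0.63.

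The genes whose log2 CPM followed Cd200 most closely over the 6 libraries were Acan, Crlf2, Gtf2i, Ptbp3 and Serpine2, with Pearson r from 0.9985 to 0.9901 among 10844 genes with a mean of at least 5 CPM. All 6 points share the split between the groups, so r mainly states that split, and it is a description with no test. The sizes differed: Acan, the cartilage proteoglycan aggrecan, had 44.9 and 11.5 CPM (-1.97 ± 0.10), whereas Gtf2i had 220 and 194 CPM (-0.19 ± 0.06). Serpine2, a protease inhibitor, had 92.7 and 44.6 CPM. For Cd80 the closest genes were Prkdc, Ern1, Aga, Dhdds and Snurf, with r from 0.9954 to 0.9885. Aga had 31.6 and 43.0 CPM (0.44 ± 0.09) and Snurf 26.7 and 40.2 CPM (0.59 ± 0.09). Snurf had the same counts as Snrpn in all 6 libraries, so its reads are not its own alone. Prkdc, with 26.4 and 32.4 CPM, is also on chromosome 16, outside the stretch from Cd86 to Cd47.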

How the data were processed

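Polyadenylated RNA of 3 H3WT and 3 H3K9M libraries was prepared with a Tecan kit, per the labels' protocols. HISAT2, featureCounts, DESeq2 and build mm10 are named in the submitters' processing notes. Neither versions nor the strand setting are given there. The authors deposited raw read counts of 15159 genes (smallest row total 19). They also deposited a table of their own comparison with log2 fold changes and standard errors, p-values and a mean normalised count as a signal. The deposited p-values and the test statistic, deposited as a score, were not used.

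Genes passed filterByExpr at a minimum count of 10 (15 over all libraries) and were scaled with TMM factors and compared in R 4.3.3 with edgeR 4.0.16 (quasi-likelihood F test, group only, Benjamini-Hochberg adjustment at 0.05 over 14758 genes). The standard error is the size of the log2 fold change over the square root of F, with a median of 0.133, and the biological coefficient of variation was 18.8%. An exact permutation test of 1 gene in 3 against 3 libraries cannot go below p = 0.1. Exon lengths and positions came from GENCODE M21 (GRCm38, also called mm10), in which 14562 symbols were found, with 446 more through older symbols and 151 without a match. The rows 4632428N05Rik, Pvrl2 and Pvrl3 served for Vsir, Nectin2 and Nectin3.

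The members and the gene lists were chosen with earlier results of these data known. Named are the members, called genes of each list with its 2 most abundant, called genes between Cd86 and Cd47, the nearest tested neighbours and the 5 genes most like Cd200 and Cd80. Genes named beyond this, such as those without overlap between groups and the run around Cd80, were chosen after their values were seen. Alternatives were DESeq2 1.42.0, limma-voom (limma 3.58.1), RLE factors, no filter, a filter of 1 CPM in 3 libraries, a replicate block, and the omission of each library in turn. Some genes of the marker lists are not reported here. Replicates differed by a chi-square per gene of 26.5 to 118, so none is a copy. On simulated counts of 14758 genes for this comparison, 70% of 100 genes set to a 2-fold change and 90% of 100 set to a 4-fold change were called by edgeR, and 3 of all 163 calls were false. The simulated spread between libraries followed its trend with level. Spread particular to a gene or to a library was left out, so these shares may not hold for the measured libraries.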

Additional observations from a re-analysis of the deposited data

How the results depend on the processing

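Over all tested genes edgeR called 138 higher and 155 lower. DESeq2 called 472 and 538, and the fit with the replicate number as a block called 31 and 27. Leaving out 1 library gave 30 to 149 higher and 30 to 223 lower: 30 and 30 without H3WT replicate 2, 49 and 49 without H3K9M replicate 1, 46 and 50 without H3K9M replicate 2, 50 and 54 without H3K9M replicate 3, and 89 lower without H3WT replicate 1. RLE factors (140 and 158), no filter (135 and 159), the stricter filter (138 and 156) and limma-voom (110 and 112) stayed within 1.5 times. For the pathway genes, called 0 and 0 in the main comparison, DESeq2 gave 1 higher and 2 lower, and leaving out 1 library gave 0 to 1 lower (Cd48, without H3WT replicate 3). For the stretch of chromosome 16, called 1 and 1, DESeq2 gave 7 higher. The lower call was 0 with limma-voom and with the replicate block. Leaving out 1 library gave 0 to 2 higher (0 without H3WT replicate 2, and Fbxo40 added without H3WT replicate 3) and 0 to 1 lower. The cause of these differences was not tested. The log2 fold changes of the 5 members moved by less than the spread between replicates in all 12 other fits. The replicate numbers were not treated as pairs: same-numbered libraries had correlations of -0.245, 0.0467 and -0.118 of their deviations, and 1 of 6 correlated best with its own number. An unexplained label in the titles is shared across the groups by replicates 1 and by replicates 3 but differs between the replicates numbered 2, which the block joins all the same. The median around Cd80 was added after seeing the data. Low counts limit Cd274, with 40 to 87 reads in a library.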

Other observations

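Runs of consecutive tested genes whose libraries did not overlap, all in 1 direction, were counted over the 14593 genes with a position, a count chosen after the run at Cd80 was seen. Most runs were of 1 gene (2438), 294 were of 2, 59 of 3 and 13 of 4. Longer ones were rare, with 2 runs of 5, 1 of 6, 1 of 8 and 2 of 9. The other run of 9 genes lies on chromosome 14 and consists mostly of unnamed gene models from Gm2897 to Gm3558. The run of 8 lies on chromosome 3 and holds Lor, Lelp1 and small proline-rich genes of the skin envelope (Sprr2a1, Sprr2a2, Sprr2a3, Sprr2k, Sprr3 and Sprr1a). Sprr2a1 and Sprr2a2 had the same counts in all 6 libraries, so their reads are shared. The run of 6 on chromosome 7 holds Cd151, Polr2l, Tspan4, Chid1, Ap2a2 and Gm16982.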
